A study of Homo sapiens with 8 samples.

Results

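The LIM homeobox genes encode transcription factors that join a pair of LIM zinc fingers, through which partner proteins bind, to a DNA-binding homeodomain. They specify neurons, pituitary, pancreas, limb, kidney and gonad in the embryo and are generally silent in blood cells. H3K27me3, trimethylation of lysine 27 of histone H3, is written by the Polycomb complex PRC2 and marks such silent developmental genes as broad domains that often centre on CpG-rich starts. Here 10 of the 12 human LIM homeobox genes were followed: LHX1, LHX2, LHX3, LHX4, LHX5, LHX8, LHX9, ISL1, LMX1A and LMX1B. Each was taken by its start on GRCh37, given to the nearest kb, and described by the H3K27me3 peaks within 5 kb and within 50 kb of that start. The other 2 genes of the family, LHX6 and ISL2, are given beside them.

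The peaks came from MOLM14, an established acute myeloid leukaemia line with an internal tandem duplication of the receptor tyrosine kinase FLT3, treated for 24 h with DMSO, the solvent, or with AC220 (quizartinib), an inhibitor of FLT3. Drosophila S2 cells went in before lysis as a spike-in, per the series design. There were 2 immunoprecipitated libraries of each treatment, each with its own deposited peak list, and 4 input samples whose values were not used here. The comparison addresses whether FLT3 inhibition alters the mark. Libraries numbered 1 (DMSO 1, AC220 1) are called set 1 and those numbered 2 (DMSO 2, AC220 2) set 2. The lists covered 232 Mb in DMSO 1, 192 Mb in AC220 1, 591 Mb in DMSO 2 and 497 Mb in AC220 2, so that sets differed more than treatments. Values are therefore given by library or within a set. The exceptions are treatment means, standard deviations (SD), permutation tests and differences over all libraries, whose spread includes the gap between the sets. The covered share is the percentage of bases inside any listed peak. The lists hold no reads, so depth is unknown, and a share at 100% cannot show a change in the amount of mark. Peak lists do not measure how much mark a cell carries.

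The starts differed in CpG content. RefSeq promoters (GRCh38.p14, another build than that of the peaks, so that these positions are not comparable with the peak positions) were found for 8 of the 10 genes. LHX1 and LHX5 had none in the table. The 250 bases before the start held 11 CpG dinucleotides at the median of 35116 promoters, and 12 of the 13 promoters of these genes held more. The following 4 are those of LHX9 (covered throughout within 5 kb, and the gene with the highest deposited -log10 q over its start in both lists of set 2), of LHX3 (least covered within 5 kb), of ISL1 (the largest difference in the same direction in both sets within 50 kb) and of LHX8 (the least covered within 50 kb for set 1, added after its values were seen). For LHX9, LHX3 and LHX8 the first promoter of the table is shown. Sequences run 5′ to 3′ on the gene's strand, and capitals mark CpG dinucleotides.
LHX9 (chr1:197912214-197912463, plus strand): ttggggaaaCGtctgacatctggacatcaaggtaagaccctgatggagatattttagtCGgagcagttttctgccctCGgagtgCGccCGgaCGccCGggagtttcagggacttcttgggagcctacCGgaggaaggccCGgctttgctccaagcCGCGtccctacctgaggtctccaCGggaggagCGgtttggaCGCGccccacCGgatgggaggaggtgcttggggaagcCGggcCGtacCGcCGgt
LHX3 (chr9:136205129-136205378, minus strand): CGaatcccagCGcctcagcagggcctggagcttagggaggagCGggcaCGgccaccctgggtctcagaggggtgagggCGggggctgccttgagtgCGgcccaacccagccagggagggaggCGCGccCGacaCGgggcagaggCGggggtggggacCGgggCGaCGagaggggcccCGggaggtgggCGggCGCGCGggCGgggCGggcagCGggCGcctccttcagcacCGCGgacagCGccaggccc
ISL1 (chr5:51383198-51383447, plus strand): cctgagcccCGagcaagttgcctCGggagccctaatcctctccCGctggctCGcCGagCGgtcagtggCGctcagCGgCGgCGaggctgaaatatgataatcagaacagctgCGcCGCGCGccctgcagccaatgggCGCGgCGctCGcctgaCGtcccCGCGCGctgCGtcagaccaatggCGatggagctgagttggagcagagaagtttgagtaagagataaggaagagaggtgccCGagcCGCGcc
LHX8 (chr1:75128184-75128433, plus strand): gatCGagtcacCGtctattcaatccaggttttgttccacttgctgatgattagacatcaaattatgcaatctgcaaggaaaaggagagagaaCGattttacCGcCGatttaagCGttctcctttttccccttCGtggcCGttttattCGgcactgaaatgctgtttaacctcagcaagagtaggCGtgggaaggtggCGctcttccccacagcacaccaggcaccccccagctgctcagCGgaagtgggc

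These stretches held 20 CpG dinucleotides in LHX9, 26 in LHX3, 27 in ISL1 and 12 in LHX8. The other LHX8 promoter in the table held 4 and was the only promoter of these genes below the median of all promoters. LMX1B had the highest number, 38. LHX3, whose 3 promoters held 26, 34 and 34, was the gene least covered within 5 kb of its start. LHX8 was the next least covered by mean. Whether CpG number goes with coverage was not tested.

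Most of these genes lay inside H3K27me3 domains under both treatments. The start was inside a peak in all 4 libraries for 8 of the 10 genes, against 4.18% of whole-kb positions of the genome. For 7 genes (LHX1, LHX2, LHX4, LHX5, LHX9, ISL1 and LMX1A) all of the 10 kb around the start was covered in all 4 libraries, which held for 0.196% of 10 kb windows of the genome. These genes were chosen with earlier results of these data known, so the contrast with the genome describes them and was not tested. The peaks over or nearest to the starts were among the widest of their lists: their median width was 22.9 kb for DMSO 1 and 22.2 kb for AC220 1, where the list medians were 1.21 and 0.996 kb, and 48.4 kb for DMSO 2 and 31.2 kb for AC220 2, where the list medians were 2.32 and 1.61 kb. Of the 10 peaks, 8 for DMSO 1, 9 for AC220 1, 9 for DMSO 2 and 8 for AC220 2 were wider than 95% of their list. A wide peak is more likely than a narrow one to hold any given position, so peaks picked by position tend to exceed the list median. No background of peaks picked in that way was computed.

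**Figure D1:**
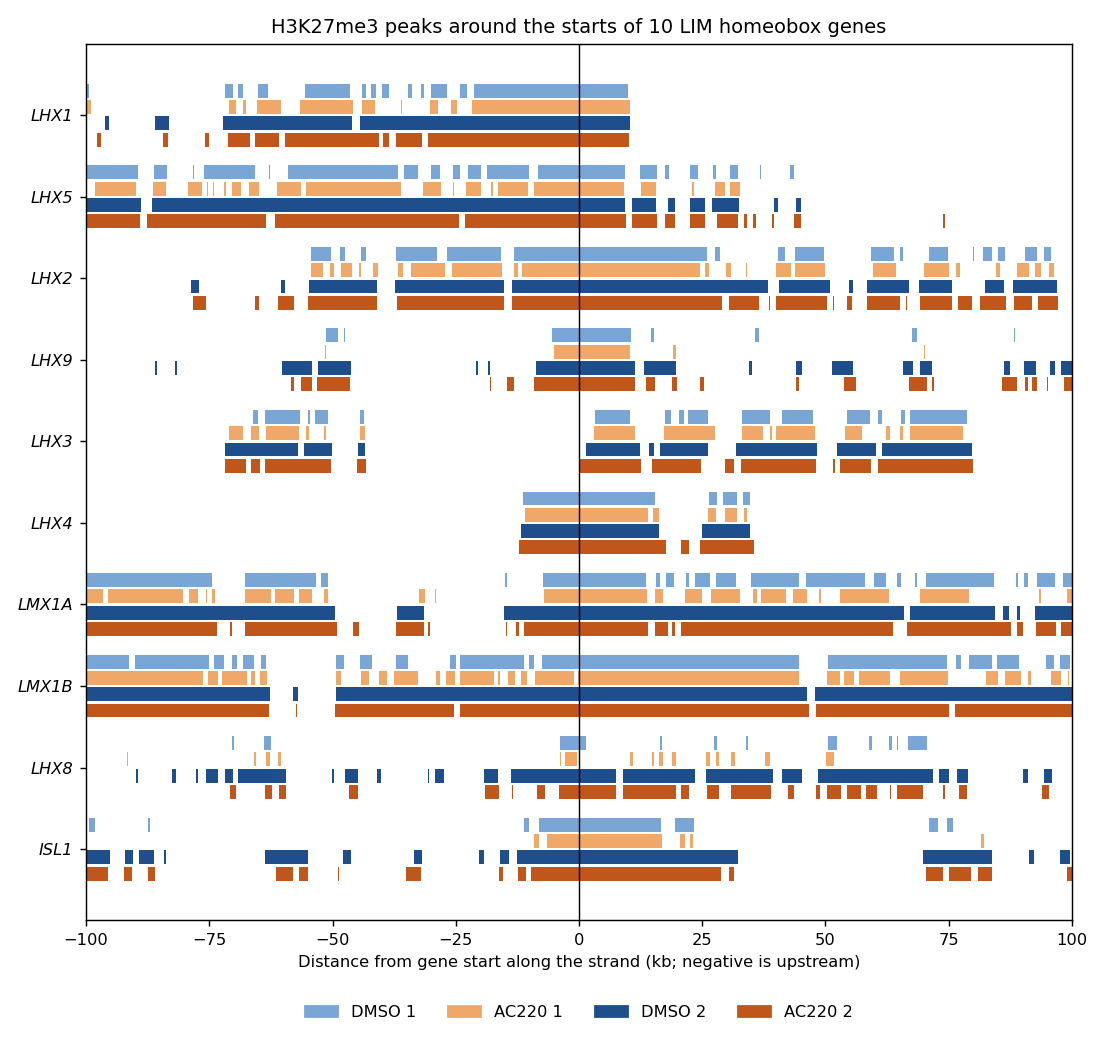
Deposited H3K27me3 peaks (bars) from 100 kb before to 100 kb after the start of each of the 10 genes, along the gene's strand, in DMSO 1, AC220 1, DMSO 2 and AC220 2. Bars span the start in all 4 libraries for 8 genes; LHX3 has its nearest peak downstream of the start, and the LHX8 start is not inside a peak in AC220 1.

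Genes that myeloid leukaemia cells express served as a control for coverage measured the same way. At ACTB, GAPDH, PTPRC, SPI1, MYB, FLT3 and CD33 the lists had no peak within 5 kb of the start in any library, 7 of 7 genes. Over the genome 124938 of 303497 windows of 10 kb had coverage in any library, so most windows were also free of peaks. Within 50 kb, 5 of these 7 remained without a peak. The exceptions were ACTB, at up to 4.35%, and CD33, between 17.9% and 36.0%. Over the genome 20702 windows of 100 kb had coverage in any library, and the share of that length free of peaks was not computed. Starts of these control genes and of the other LIM genes were entered to the nearest kb from general knowledge of GRCh37 and were not checked against an annotation of that build.

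LHX1 and LHX5, which act in kidney, head and spinal interneuron development, are paralogues. The single peak over each start ended at nearly the same place downstream in all 4 libraries. Over the LHX1 start (chromosome 17, 35295 kb) the DMSO 1 peak ran from 35273611 to 35304953. The downstream edge of the LHX1 peak lay 9.95 kb from the start in DMSO 1, 10.3 kb for AC220 1, 10.4 kb for DMSO 2 and 10.2 kb for AC220 2, a range of 0.410 kb. Beyond it no peak was listed from 20 to 100 kb downstream in any library. The upstream edge moved instead, at 21.4, 21.7, 44.4 and 30.6 kb in the same order, on the side where RefSeq places the divergent transcript LHX1-DT. Within 50 kb LHX1 was covered over 44.3% for DMSO 1 and 41.6% for AC220 1, and over 58.8% for DMSO 2 and 56.7% for AC220 2. The differences (AC220 minus DMSO) were -2.75 percentage points in set 1 and -2.07 for set 2, less than the gap between the sets.

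LHX5 (chromosome 12, 113910 kb, minus strand) had its downstream peak edge at 9.29 kb for DMSO 1, 9.22 kb for AC220 1, 9.27 kb for DMSO 2 and 9.61 kb for AC220 2, a range of 0.389 kb, the narrowest of all 20 edges. Its upstream edge was at 8.27, 9.10, 86.6 and 23.0 kb. With peaks at most 5 kb apart joined, the downstream edge was not steady, at 36.9, 15.7, 32.4 and 45.1 kb. On the upstream side DMSO 2 had a single peak of 95.9 kb where AC220 2 had a peak of 32.6 kb followed by others. The joined LHX5 domain reached 127 kb upstream in both libraries of set 2, so the stretch was interrupted and not shortened in AC220 2. Within 50 kb the share was 57.2% for DMSO 1 and 53.2% for AC220 1, and 76.5% for DMSO 2 and 76.2% for AC220 2.

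LHX2 and LHX9 are paralogues that act in forebrain, eye, limb and gonad. LHX2 (chromosome 9, 126774 kb) was among the most covered of the 10: within 50 kb the share was 68.4% for DMSO 1, 69.9% for AC220 1, 92.5% for DMSO 2 and 89.7% for AC220 2, and in every library over 99% of 100 kb windows of the genome were less covered. The LHX2 difference had opposite signs in the sets, at 1.45 and -2.79 percentage points (AC220 minus DMSO). Its peak ran 13.1 kb upstream and 25.9 kb downstream in DMSO 1, 11.5 and 24.5 kb for AC220 1, 13.6 and 38.4 kb for DMSO 2, and 13.6 and 29.1 kb for AC220 2. The upstream edge of this peak therefore stayed within 2.12 kb while its downstream edge spread over 13.9 kb. With gaps of up to 5 kb joined, neither edge was steady: the upstream edge spread over 28.6 kb and the downstream edge over 78.5 kb.

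LHX9 (chromosome 1, 197882 kb) had a compact domain of high rank. The peak over its start was 15.9 kb wide in DMSO 1, 15.5 kb for AC220 1, 20.1 kb for DMSO 2 and 20.4 kb for AC220 2. Its deposited fold enrichment was higher than that of 99.9% or more of the peaks in every library. From 20 to 100 kb upstream 3.19%, 0.309%, 17.4% and 11.8% of bases were covered in DMSO 1, AC220 1, DMSO 2 and AC220 2, and from 20 to 100 kb downstream 2.63%, 0.266%, 21.6% and 17.5%. Within 50 kb the LHX9 share was 18.5% for DMSO 1 and 16.1% for AC220 1, and 32.7% for DMSO 2 and 30.0% for AC220 2, with differences of -2.45 and -2.66 percentage points. The paralogues thus shared a fully covered start and differed in reach.

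LHX3 and LHX4, paralogues needed for the pituitary and for motor neurons, differed at the start itself. LHX3 (chromosome 9, 139095 kb, minus strand) was the only member with no peak over its start in any library. The nearest peak lay downstream of the start, on the side of the gene body, and its near edge was 3269 bp from the start in DMSO 1, 3132 bp for AC220 1, 1331 bp for DMSO 2 and 265 bp for AC220 2. Within 5 kb LHX3 was covered over 17.3%, 18.7%, 36.7% and 47.4% in that order, higher with AC220 by 1.37 percentage points in set 1 and 10.7 for set 2. Within 50 kb the share was 26.3% and 32.1% for set 1 and 40.0% and 41.2% for set 2, also higher with AC220 (5.73 and 1.14 percentage points). The direction in set 1 was lost when only peaks with a -log10 q of at least 2 were kept: the share was then 23.3% for DMSO 1 and 8.15% for AC220 1. RefSeq lists 3 promoters for LHX3, and coverage was measured from the single start of the rule.

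LHX4 (chromosome 1, 180199 kb) had a peak with a steady upstream edge. The peak ran 11.4 kb upstream and 15.4 kb downstream in DMSO 1, 10.9 and 13.9 kb for AC220 1, 11.7 and 16.3 kb for DMSO 2, and 12.1 and 17.7 kb for AC220 2. With gaps of up to 5 kb joined, the downstream edge of the LHX4 domain was at 15.4, 16.2, 16.3 and 35.5 kb. No peak was listed from 20 to 100 kb upstream in any library, where RefSeq places QSOX1. LHX4 and LHX1 were the only genes with such an empty side, 2 of 20 sides. No genome share was computed for stretches of this length, so how common an empty side is elsewhere is not known here. Within 50 kb the LHX4 share was 32.6% for DMSO 1 and 30.6% for AC220 1, and 37.7% for DMSO 2 and 42.4% for AC220 2, in opposite directions.

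**Figure D2:**
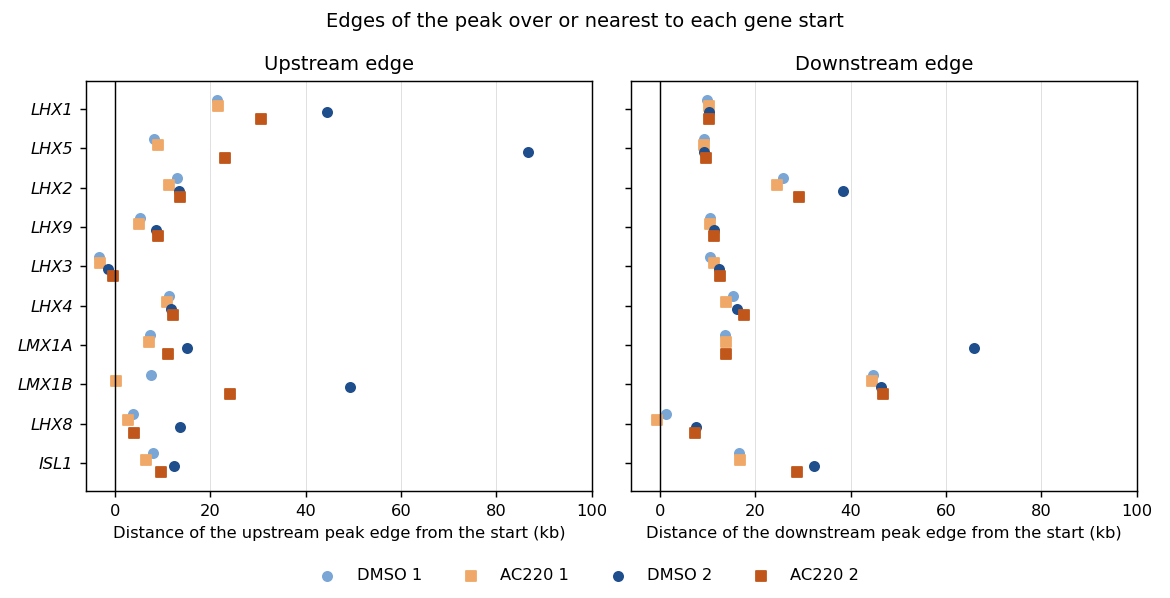
Distance in kb from the gene start to the upstream edge (left) and downstream edge (right) of the peak over or nearest to the start, by gene, with 1 point per library. The downstream edges of LHX1, LHX5 and LHX9 and the upstream edge of LHX4 lie within 2 kb of each other in the 4 libraries, whereas the upstream edges of LHX5 and LMX1B spread over 78.3 and 49.1 kb.

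LMX1A and LMX1B act in midbrain dopamine neurons, and LMX1B also in dorsal limb and kidney. LMX1A (chromosome 1, 165325 kb, minus strand) had its downstream peak edge at 13.6 kb for DMSO 1, 13.8 kb for AC220 1 and 14.0 kb for AC220 2, and at 65.9 kb for DMSO 2, the only library in which the neighbouring peaks were run together. With gaps of up to 5 kb joined, the LMX1A domain was the longest of the 10 in DMSO 1 and in both libraries of set 2 but not in AC220 1, where that of LHX5 reached 141 kb. Its length was 266 kb for DMSO 2 and 263 kb for AC220 2, against 131 kb for DMSO 1 and 70.1 kb for AC220 1. Within 50 kb the LMX1A share was 45.3% for DMSO 1 and 42.6% for AC220 1, and 71.2% for DMSO 2 and 66.5% for AC220 2, with differences of -2.75 and -4.72 percentage points.

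LMX1B (chromosome 9, 129377 kb) was the most covered gene within 50 kb in every library, at 73.8% for DMSO 1, 74.2% for AC220 1, 97.6% for DMSO 2 and 96.9% for AC220 2. The treatments differed by less than 1 percentage point in both sets. The downstream edge of the LMX1B peak was at 44.7, 44.6, 46.3 and 46.7 kb, a range of 2.18 kb. With gaps of up to 5 kb joined, the downstream edge was not steady and spread over 58.6 kb. Coverage went on past the peak: from 20 to 100 kb downstream it was 78.6%, 66.8%, 97.9% and 97.0% in the same order. In AC220 1 the domain was interrupted just before the start, so that 91.3% of the 10 kb around it was covered there and 100% in the other 3 libraries. In set 2 the joined LMX1B domain was 153 kb long with each treatment.

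LHX8, a factor of forebrain cholinergic neurons, tooth and oocytes, had the lowest deposited -log10 q of the 10 genes at its start in every library (2.09, 2.14, 4.84 and 4.30 in the order DMSO 1, AC220 1, DMSO 2, AC220 2), and coverage near it varied most between libraries. Around its start (chromosome 1, 75594 kb) the peak was 5.14 kb wide in DMSO 1, 2.28 kb for AC220 1, 21.3 kb for DMSO 2 and 11.5 kb for AC220 2. The AC220 1 peak stopped 501 bp short of the start. Within 5 kb LHX8 was covered over 51.4% and 25.3% for set 1 and over 100% and 90.6% for set 2, and it was the only member lower with AC220 in both sets there. Within 50 kb the share was 6.78% for DMSO 1 and 8.72% for AC220 1, but 63.6% for DMSO 2 and 43.0% for AC220 2. Its SD between the DMSO libraries was 40.2 percentage points (n = 2), the largest of the 10 genes. In set 2 the joined LHX8 domain had nearly the same ends with both treatments, 19.3 kb upstream and 78.8 kb downstream in DMSO 2 against 19.1 and 78.6 kb for AC220 2, and consisted of 8 peaks in DMSO 2 and 17 for AC220 2.

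ISL1, a factor of motor neurons, heart progenitors and pancreatic islets, had the largest difference within 50 kb in the same direction in both sets. Within 50 kb of its start (chromosome 5, 50679 kb) the share was 29.7% for DMSO 1 and 25.8% for AC220 1, and 50.8% for DMSO 2 and 45.3% for AC220 2, with differences of -3.93 and -5.50 percentage points. Both AC220 values lay below the DMSO value of their own set. The groups overlapped, at 40.2% ± 14.9 over the DMSO libraries and 35.5% ± 13.8 over those of AC220 (SD, n = 2), a spread that includes the gap between the sets. A two-sided exact permutation test gave p = 0.667. With the replicate number as a block the exact p was 0.5, the smallest that 2 pairs allow. The ISL1 peak was 24.8 kb wide in DMSO 1, 23.4 kb for AC220 1, 44.8 kb for DMSO 2 and 38.5 kb for AC220 2. Its upstream edge was nearer to the start with AC220 in both sets (8.09 and 6.51 kb, 12.5 and 9.70 kb).

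Compared by treatment, the 10 genes had no common direction. Within 50 kb, LHX1, LHX9, ISL1 and LMX1A were lower with AC220 by at least 1 percentage point in both sets, 4 of 10, where 32.3% of 100 kb windows with any coverage met the same rule, and 58.4% of windows at least as covered on average as LHX9, the least covered of these genes by mean. LHX3 alone was higher in both sets, 1 of 10, against 4.76% and 6.22% of windows. The other 5 genes had no common direction. Within 5 kb, 1 gene (LHX8) was lower and 1 (LHX3) higher in both sets, where 24.4% and 7.27% of 10 kb windows with any coverage were called, and 36.3% and 9.24% of those at least as covered on average as LHX3. The other 8 genes met neither rule, among them the 7 covered over 100% in all 4 libraries. The median difference over the genes within 50 kb was -2.23 percentage points in set 1 and -2.37 for set 2. Over 100 kb windows with any coverage the median was -0.352 and -2.50, and over windows at least as covered on average as LHX9 it was -4.38 and -5.75, so the median of the genes in set 1 lay between these backgrounds and that in set 2 near the first. For no gene did both AC220 libraries lie below, or both above, both DMSO libraries. That separation was seen in 0.995% and 0.647% of 100 kb windows with any coverage, and in 3.24% and 1.22% of such 10 kb windows. The exact permutation p was 0.667 or 1 for every gene (two-sided, 6 assignments, n = 2 libraries a group), and this design cannot give less than 0.333. Nothing in the labels says that libraries of a treatment came from separate cultures, so these p-values measure the spread between libraries, which may be technical.

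**Figure D3:**
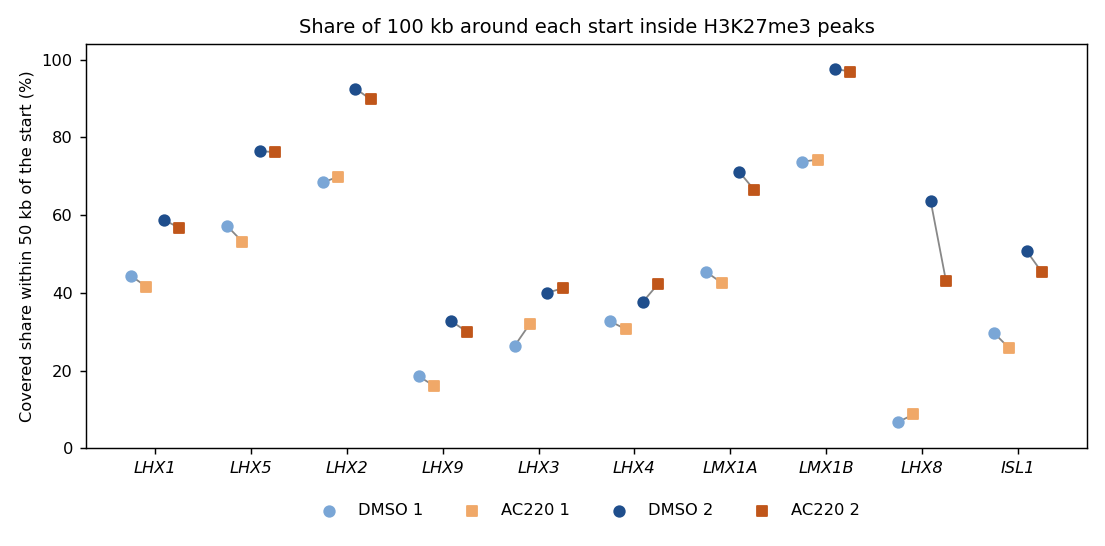
Covered share (%) of the 100 kb around each start in the 4 libraries, circles for DMSO and squares for AC220, with a line joining the libraries of a set. Set 2 lies above set 1 for all genes, and the lines slope down in both sets by at least 1 percentage point for LHX1, LHX9, LMX1A and ISL1.

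The count of 4 changed when lists were trimmed. With each DMSO list trimmed to the covered length of its AC220 list, the peaks of highest -log10 q being kept, LMX1A alone was lower in both sets (-2.17 and -4.72 percentage points), and LHX3 and LHX5 were higher. ISL1 then differed by 0.982 for set 1 and -1.42 for set 2, and LHX1 by 0.248 and -2.07. Shortening the DMSO lists alone can only raise a difference or leave it unchanged, so the direction of this change was fixed in advance. No genome share was computed for trimmed lists.

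By distance along the strand, coverage averaged over the 10 genes was highest in the first 10 kb downstream of the start, at 87.3% for DMSO 1, 86.1% for AC220 1, 96.5% for DMSO 2 and 97.9% for AC220 2. In the 10 kb upstream it was 71.4%, 69.3%, 88.7% and 84.4%. From 10 to 20 kb upstream it was 37.7% and 30.0% for set 1 and 57.2% and 49.9% for set 2, with differences of -7.69 and -7.34 percentage points. The mean difference over 10 kb windows with any coverage was -3.18 for set 1 and -7.51 for set 2. Over windows at least as covered on average as LHX3 within 5 kb it was -6.34 and -7.68. In this zone 2 of 10 genes were lower in both sets, where 24.4% of 10 kb windows with any coverage were. From 20 to 50 kb upstream the values were 22.3%, 22.7%, 45.1% and 42.7%, with differences of 0.416 and -2.42. From 10 to 20 kb downstream the sets went in opposite directions, at 46.2% and 48.8% for set 1 and 78.1% and 73.9% for set 2. From 20 to 50 kb downstream the values were 31.2%, 30.8%, 55.2% and 51.2%. The means over genes give each gene the same weight and carry no test.

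**Figure D4:**
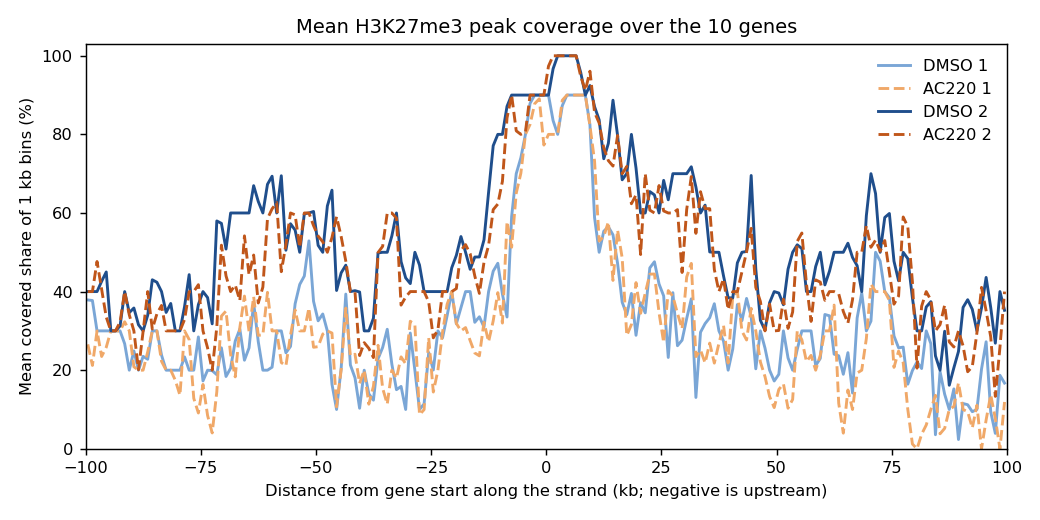
Mean covered share (%) of 1 kb bins over the 10 genes against distance from the start along the strand, with solid lines for DMSO and dashed lines for AC220. All 4 lines peak in the first 10 kb downstream, where they average between 86.1% and 97.9%, and set 2 lies above set 1 on both flanks.

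More peaks were listed near most of the genes with AC220, as in most windows of the genome above the same floor of coverage in set 2. Within 50 kb of the 10 starts there were 48 peaks in DMSO 2 and 66 for AC220 2, and the number was higher with AC220 for 8 genes and equal for LHX3 and LHX8. More peaks with AC220 2 were found in 53.1% of 100 kb windows with any coverage and in 82.4% of those at least as covered on average as LHX9. LMX1A differed most, with 3 peaks in DMSO 2 and 10 for AC220 2. In set 1 there were 70 peaks in DMSO 1 and 80 for AC220 1, more for 6 genes and fewer for 4 (LHX1, LHX5, LHX9 and LHX3), where 31% and 49.8% of the same windows had more. Of the 10 genes, 5 had more peaks with AC220 in both sets, where 20.7% of windows with any coverage and 40.3% of those at least as covered as LHX9 did. The AC220 2 list also had more peaks in all than DMSO 2, 139642 against 117556. Among the 8 genes with a peak over the start in all libraries, 5 of 16 peak edges were nearer to the start with AC220 in both sets, none was farther in both and 11 moved in opposite directions. Any difference counted here, the smallest being -0.016 and -0.078 kb at the downstream edge of LHX9, and no genome share was computed for edges. Joined domains were longer with AC220 in both sets for 5 of the 10 genes and shorter for 3. Any difference counted here too, down to 0.02 kb for LMX1B in set 2, and no genome share was computed for domains.

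Of the other family members, LHX6, a factor of cortical interneurons and the paralogue of LHX8, was covered within 5 kb over 48.7% for DMSO 1, 60.8% for AC220 1, 84.1% for DMSO 2 and 78.6% for AC220 2. Within 50 kb the LHX6 share was 24.1%, 20.2%, 44.7% and 42.9% in that order, lower with AC220 in both sets (-3.90 and -1.86 percentage points). ISL2, the paralogue of ISL1 in motor neurons, had no peak within 5 kb in any library, and within 50 kb only AC220 2 had any, over 0.673% of bases. The LIM-only genes encode LIM proteins without a homeodomain that compete for the same cofactors. LMO2, which blood progenitors express, had no peak within 5 kb and between 11.6% and 19.1% coverage within 50 kb. Of the 4 LIM-only genes 3 had a peak within 5 kb in at least 1 library, where 124938 of 303497 windows of 10 kb did. LMO1 was covered over 50.6% to 98.6% and LMO3 over 16.9% to 68.5%. LMO4 was covered only in DMSO 2, over 0.35%. The cofactor genes LDB1 and LDB2, whose proteins bind LIM domains, reached at most 8.31% within 5 kb.

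**Figure D5:**
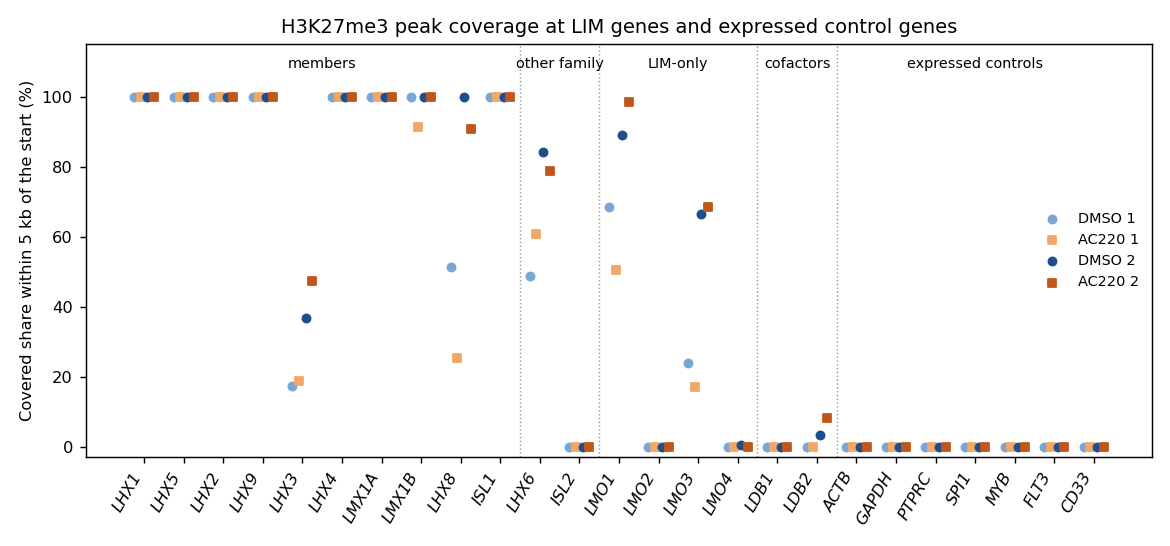
Covered share (%) within 5 kb of the start for the 10 members, LHX6 and ISL2, LIM-only genes, LIM cofactor genes and expressed control genes, with 1 point per library. The members except LHX3 and LHX8 lie at or above 91.3%, and the 7 expressed controls and ISL2 lie at 0.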

How the data were processed

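H3K27me3 peak lists of 4 MOLM14 libraries (2 DMSO, 2 AC220, 24 h) were analysed; treatment and number came from the titles. The submitters' processing notes list BWA (0.7.10-r789) and MACS2 (2.1) but no settings. The authors deposited 1 list per library, with positions in bp, a fold enrichment (a ratio over the library's own background), -log10 p and -log10 q, and a score that repeats q; these were used only within a list. How inputs and Drosophila reads entered the calls, and the build, are not given in the sources used here. Chromosome naming and the last peak ends were those of GRCh37. Peaks are printed counting from 1.

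Covered shares were computed in Python (3.11.15) through numpy (version 2.4.6) and pandas (version 2.3.3) and drawn with matplotlib 3.10.9. Genome windows of 10 and 100 kb on chromosomes 1 to 22 and X gave the background. A gene was called lower or higher when both sets differed by at least 1 percentage point in that direction. Groups were compared per gene by an exact permutation test. Coverage and calls were tested on simulated lists. Strands came from RefSeq; those of LHX1 and LHX5 from general knowledge. All 10 genes are named. Members and lists were chosen with earlier results of these data known, and flanks and full coverage of 10 kb were added after the data had been seen. Tried alternatives were q limits, trimmed lists, joined peaks, other windows and limits, a replicate block and leaving out each library.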

Additional observations from a re-analysis of the deposited data

How the results depend on the processing

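With 2 libraries a treatment, direction over all libraries depended on balance between the sets. Leaving out each library in turn, the mean difference over the 10 genes (AC220 minus DMSO, -2.09 percentage points within 50 kb) ranged from -13.0 to 8.83, that within 5 kb (-1.61) from -6.74 to 3.53 and that of the flanks from 5 to 50 kb (-2.15) from -13.9 to 9.61. It came out higher with AC220 without DMSO 2 or without AC220 1, which leaves the sets unbalanced. A difference with 1 library left out therefore includes the gap between the sets. Within sets 1 and 2 the mean differences were -0.834 and -3.35 within 50 kb, -3.34 and 0.127 within 5 kb, and -0.556 and -3.74 for the flanks. By gene the ranges within 50 kb were -9.99 to 5.17 for LHX1, -12.7 to 11.4 for LHX2, -3.41 to 10.3 for LHX3, -4.56 to 7.17 for LHX4, -13.7 to 9.35 for LHX5, -37.7 to 19.1 for LHX8, -9.64 to 4.53 for LHX9, -15.3 to 5.84 for ISL1, -16.7 to 9.19 for LMX1A and -12.0 to 11.8 for LMX1B, and within 5 kb -8.32 to 20.4 for LHX3 and -50.4 to 14.9 for LHX8. The number of genes lower in both sets within 50 kb was 6 in either set alone and that higher 2 or 3; within 5 kb they were 1 to 2 and 1.

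The 4 genes lower within 50 kb became 1 with DMSO lists trimmed to the covered length of AC220, 1 with all lists at equal length, 2 within 25 kb and 0 at a limit of 5 percentage points. The 1 gene higher became 2 with either trimming, and 0 within 100 kb, at 5 points, or with a -log10 q of at least 2. Within 5 kb the 1 gene lower became 0 within 2 kb and 2 within 10 kb, and the 1 gene higher became 0 within 2 kb and at 5 points. Genes covered throughout fell from 7 to 2 within 10 kb of the start. The pooled difference within 50 kb changed sign for LHX2 (0.242 with peaks up to 1 kb apart joined, 0.775 within 100 kb), LHX3 (-6.50 at a -log10 q of at least 2), LHX4 (-0.234 at that limit), LHX5 (1.38 and 1.04 with the trimmings) and LMX1B (1.2 with either trimming, 1.27 joined, 3.23 at that limit). The cause was not tested. The 8 genes with a start inside a peak in all libraries stayed within 1.5 times that number under every alternative run. Without LHX8 the mean difference within 50 kb was -1.29.

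With the replicate number as a block, the differences were the same by construction (-2.09 within 50 kb over the genes) and the exact p was 0.5 or 1, 0.5 being the smallest that 2 pairs allow. The deviations of same-numbered libraries correlated at 0.892 over 20702 windows of 100 kb, but the labels do not say what a number stands for.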
